A study of Mus musculus with 103 samples.

Results

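The genes Ada, Gldc, Slc14a1, Bdh1, Pip5k1b, Fabp3 and Svip, whose transcripts stood far higher in mouse embryonic fibroblasts lacking Ctcf than in untreated ones, were followed through every RNA-seq and nascent RNA library analysed. They are 7 of the 23339 genes with a row in the main RNA-seq table. They were picked from the comparison of Ctcf-deleted with untreated Ctcf-floxed cells, where they hold ranks 2, 6, 8, 9, 10, 11 and 12 by log2 fold change among the genes called higher. That comparison is therefore given as a description, with no test. Just inside the choice stood Fabp3, with a log2 fold change of 2.45, and just outside it Stbd1 and Slain1, with 2.44 and 2.43. The genes at ranks 1, 3, 4, 5 and 7 were not chosen.

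Most of the 7 genes handle small metabolites. Ada encodes adenosine deaminase, which converts adenosine and deoxyadenosine to inosine forms. Gldc encodes glycine decarboxylase, the pyridoxal-dependent subunit of the mitochondrial glycine cleavage system, and Bdh1 a mitochondrial dehydrogenase that interconverts the ketone bodies acetoacetate and 3-hydroxybutyrate. Pip5k1b encodes a kinase that makes phosphatidylinositol 4,5-bisphosphate. Slc14a1 encodes a urea transporter of kidney vessels and red cells, and Fabp3 the fatty acid binding protein of heart and skeletal muscle. Svip encodes a small membrane-anchored partner of the ATPase VCP that inhibits degradation of proteins from the endoplasmic reticulum, so it is not an enzyme of metabolism. CTCF is a zinc finger protein that binds DNA and halts the cohesin ring as it moves along chromatin, and WAPL releases cohesin from DNA.

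All cells were quiescent fibroblasts of C57BL/6 mouse embryos at stage E13.5d, and all RNA-seq cells were rested for 10 d. Cells with the genotype Ctcf(fl/fl), and cells with Ctcf(fl/fl) Wapl(fl/fl), lost the floxed genes through 4 h with an adenovirus that carries Cre (Adeno-Cre), and their untreated clones were the controls. Wild-type cells with and without Adeno-Cre controlled for the virus. Smc3 floxed cells (clone 1 fl/fl, the other clones fl/-) and Wapl(fl/-) cells carried Rosa26(CreER/+) and received 4'-hydroxytamoxifen (4-OHT) for 2 to 3 d, with untreated clones and plain Rosa26(CreER/+) cells as controls. The main table held 2 libraries a group, except 4 for each Smc3 group and 1 for Ctcf and Wapl double-deleted cells. Libraries of a group are numbered clones, and the main test did not pair the treated and untreated library of a clone. Its p-values rest on a spread between such clones that is pooled over all 12 groups. The double-deleted group, with 1 library, adds nothing to that spread. Values are RPKM, read counts divided by gene length and library size.

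The 27 libraries of the main table held about 8100000 to 39800000 reads in genes. Ctcf mRNA averaged 4.13 ± 0.129 RPKM in Ctcf-deleted cells and 12.4 ± 1.19 RPKM in their untreated clones (SD, n = 2 each). The double-deleted library had 3.76 RPKM of Ctcf and 1.52 RPKM of Wapl mRNA, against means of 10.9 and 3.32 RPKM in untreated clones. Wapl mRNA averaged 0.847 ± 0.0951 RPKM in Wapl-deleted cells and 1.64 ± 0.226 RPKM in their untreated fl/- clones (SD, n = 2 each). In untreated Cre-ER cells it averaged 5.20 ± 0.476 RPKM (SD, n = 2). Smc3 mRNA averaged 11.6 ± 1.07 RPKM in the libraries labelled Smc3-deleted and 9.53 ± 1.30 RPKM in untreated ones (SD, n = 4 each), so that deletion rests on the labels. All 10 fibroblast markers were detected in every group, with summed levels of 7490 to 17200 RPKM. All 12 macrophage markers were present too, with sums of 26.9 to 3650 RPKM that differed widely within groups, and none of the 12 was called after Ctcf deletion. In such bulk samples more cells of a type and more RNA per cell cannot be told apart.

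Promoter sequences from RefSeq, on build GRCm38.p6, are shown for 5 of the genes, because CTCF acts by binding DNA and the start regions differ in whether they hold letters of its motif. Each line gives the 120 bases before the outermost listed start, 5′ to 3′ on the gene's strand, and capitals mark CCCTC or its reverse complement GAGGG.
Ada, minus strand, chr2:163750240-163750359: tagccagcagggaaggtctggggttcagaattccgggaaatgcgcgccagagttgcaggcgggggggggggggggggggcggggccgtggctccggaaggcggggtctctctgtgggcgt
Gldc, minus strand, chr19:30175442-30175561: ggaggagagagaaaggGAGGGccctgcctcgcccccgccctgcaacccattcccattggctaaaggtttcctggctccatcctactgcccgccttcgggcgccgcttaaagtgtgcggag
Bdh1, plus strand, chr16:31422177-31422296: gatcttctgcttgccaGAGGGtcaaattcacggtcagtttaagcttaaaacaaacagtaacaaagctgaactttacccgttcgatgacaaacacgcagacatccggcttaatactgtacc
Fabp3, plus strand, chr4:130308618-130308737: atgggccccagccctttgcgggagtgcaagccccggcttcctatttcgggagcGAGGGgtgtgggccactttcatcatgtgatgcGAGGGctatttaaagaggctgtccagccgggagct
Svip, minus strand, chr7:52006019-52006138: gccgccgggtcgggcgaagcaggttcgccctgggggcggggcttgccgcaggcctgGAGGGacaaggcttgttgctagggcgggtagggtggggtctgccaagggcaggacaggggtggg

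The sequences differed in make-up. Over the 250 bases before the start, GC content was 67.2% at Ada, 64.8% at Fabp3, 62.8% at Svip, 59.6% at Gldc and 49.6% at Bdh1, beside a median of 52.4% over 32851 promoters. The same windows held 14 CpG dinucleotides at Ada, 17 at Fabp3 and 11 at Svip, against 8 at Gldc and 7 at Bdh1, with a median of 6 over all promoters. The other listed start had 60.8% GC and 9 CpG at Bdh1, above both medians, and 72.8% GC and 19 CpG at Svip. A core of the CTCF motif, spelled CC, 3 free bases, AG, 2 free bases and GGC and searched on both strands, occurred in 0 of the 7 windows of these 5 genes, which include a second start of Bdh1 and of Svip, and in 7.17% of all promoters. CCCTC on either strand occurred in every one of these windows except that of Ada, and in 60.5% of all promoters. TATAAA on either strand occurred in 0 of the 7 windows and in 12.4% of all promoters. A match here is a description of letters, not of binding.

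In Ctcf-deleted cells each of the 7 genes lay above its untreated clones in both clone pairs. The threshold used throughout, a Benjamini-Hochberg adjusted p of 0.05 in limma, called 5.04% of the 12604 genes tested higher in this comparison. The 7 genes were chosen among those, so no p-value of theirs is given for it. Ada reached 87.8 and 89.4 RPKM in Ctcf-deleted clones 1 and 2, against 7.50 and 6.68 RPKM in the same clones untreated. The treated clones lay within 2 RPKM of each other, and the ratio of means was 12.5. Bdh1 stood at 21.0 and 24.7 RPKM in Ctcf-deleted clones, against 1.95 and 4.67 RPKM untreated. Fabp3 stood at 61.9 and 62.8 RPKM in Ctcf-deleted clones, against 9.84 and 11.5 RPKM untreated. Svip stood at 18.2 and 20.5 RPKM in Ctcf-deleted clones, against 0.972 and 2.95 RPKM untreated. For these genes the untreated clones already held a clear transcript level, and for Bdh1 and Svip it was the untreated clones that differed more between themselves.

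The other genes had low levels in untreated clones. Gldc stood at 6.27 and 5.79 RPKM in Ctcf-deleted clones, against 0.150 and 0.206 RPKM untreated, and these values rest on 1343 reads in deleted and 40 reads in untreated clones. Slc14a1 stood at 7.92 and 6.27 RPKM in Ctcf-deleted clones, against 0.367 and 0.364 RPKM untreated, from 1721 and 92 reads. Pip5k1b stood at 7.41 and 5.64 RPKM in Ctcf-deleted clones, against 0.223 and 0.451 RPKM untreated, from 1002 and 48 reads. Ratios of mean RPKM were thus 33.8 for Gldc, 19.4 for Slc14a1 and 19.4 for Pip5k1b, larger than the 12.5 of Ada, the 9.89 of Svip, the 6.90 of Bdh1 and the 5.85 of Fabp3. On the log2(RPKM + 1) scale of the tests the order changes, with Ada first at 3.47, because adding 1 shrinks the change of low genes. Pip5k1b entered the tests through its level in the Ctcf-deleted clones alone, since none of the other 25 libraries reached 1 RPKM, so any gene with such values in this group had to differ there. Gldc reached 1 RPKM in 1 of those 25 libraries, the double-deleted one, and Slc14a1 in 3.

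**Figure D1:**
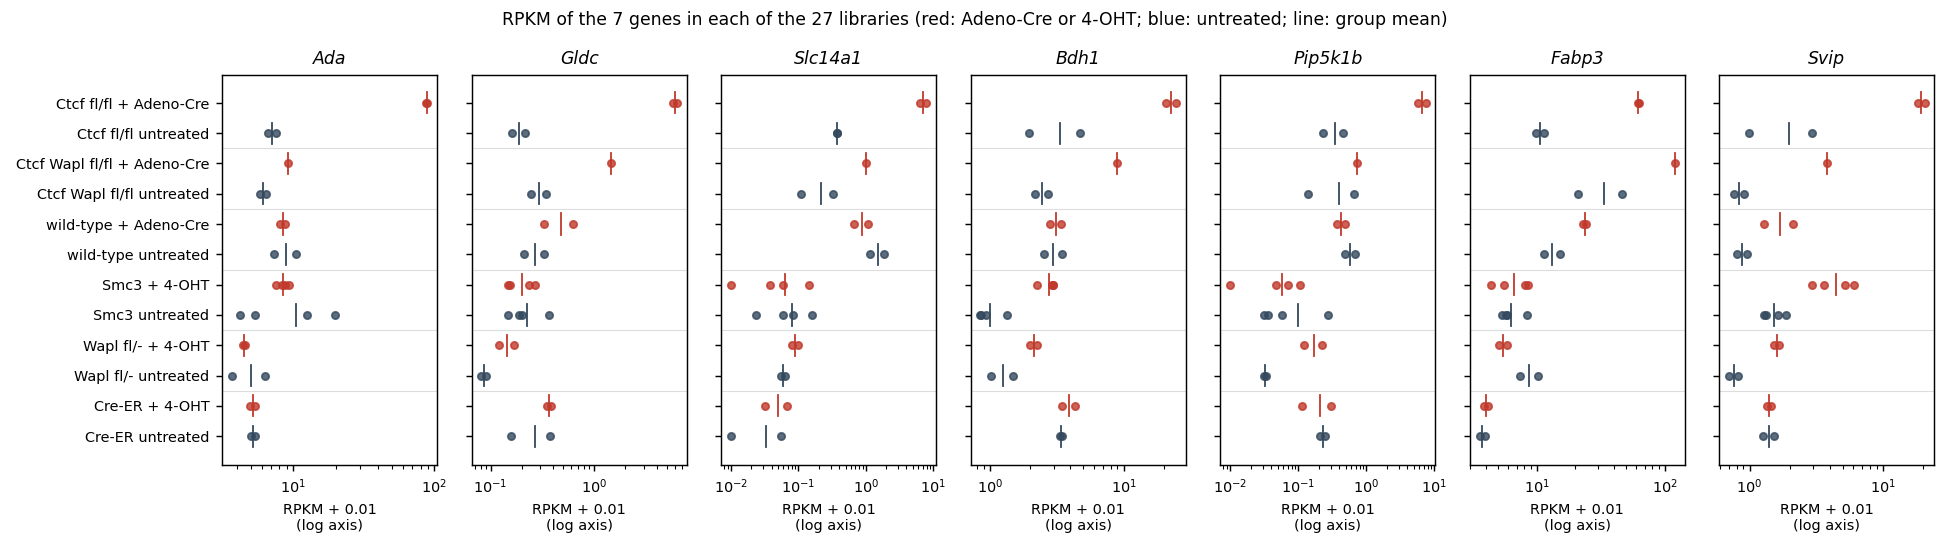
RPKM plus 0.01 on a log axis for each gene (columns) in the 12 groups of the main table (rows), with 1 point for each of the 27 libraries and a vertical line at each group mean. The Ctcf-deleted libraries are the rightmost points for each gene except Fabp3, which is highest in the double-deleted library at 121 RPKM.

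Set against all 25 other libraries of the main table, the lower of the Ctcf-deleted clones still exceeded the highest other library for 6 of the 7 genes. Their ratio was 7.91 for Pip5k1b, 4.41 for Ada, 3.98 for Gldc, 3.43 for Slc14a1, 3.01 for Svip and 2.37 for Bdh1. The highest other library was the double-deleted one for Pip5k1b, Gldc and Bdh1, an untreated Smc3 clone with 19.9 RPKM for Ada, an untreated wild-type clone with 1.83 RPKM for Slc14a1, and a library labelled Smc3-deleted with 6.06 RPKM for Svip. Fabp3 was the exception, with 0.513 as its ratio, because the double-deleted library reached 121 RPKM. These ratios describe the choice of genes and were not tested, and the share of all genes that stand so is not given here.

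Untreated cells set the baseline from which these levels are read. Over 14 untreated libraries Ada ran between 3.67 and 19.9 RPKM with a median of 6.39 RPKM, and Fabp3 between 3.55 and 46.1 RPKM with a median of 9.10 RPKM. Medians were 2.06 RPKM for Bdh1, 1.11 RPKM for Svip, 0.212 RPKM for Pip5k1b, 0.195 RPKM for Gldc and 0.0858 RPKM for Slc14a1. Most of the genes had lower medians in untreated libraries that carried Cre-ER. Slc14a1 had a median of 0.0474 RPKM and at most 0.148 RPKM in the 8 untreated libraries that carried Cre-ER, and a median of 0.365 RPKM with a top of 1.83 RPKM in the 6 that did not. Fabp3 had a median of 5.82 RPKM and at most 10.2 RPKM in the Cre-ER libraries, and a median of 13.3 RPKM and at least 9.84 RPKM in the others. Pip5k1b showed the same order, with medians of 0.0364 RPKM in the Cre-ER libraries and 0.461 RPKM in the others. So did Bdh1 (1.16 and 2.60 RPKM), Ada (5.37 and 6.97 RPKM) and Gldc (0.162 and 0.220 RPKM), while Svip went the other way (1.30 and 0.922 RPKM). The ranges overlapped for all 7 genes, and clone, line and Cre-ER allele cannot be told apart here.

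The genes were chosen for a rise in Ctcf-deleted cells, so the place of that group by mean level describes the choice. Its place was not tested, and the share of all genes for which that group stands clear is not given here. In the order of group means, Ctcf-deleted cells stood clear of every other group for Ada, Gldc, Slc14a1, Bdh1, Pip5k1b and Svip. Below them, the double-deleted library came next for Gldc, Bdh1 and Pip5k1b. For Slc14a1 untreated wild-type cells came next, at 1.15 and 1.83 RPKM, followed by the double-deleted library at 0.992 RPKM. For Ada the 5 groups from untreated Smc3 to Adeno-Cre wild type had means of 10.5 to 8.41 RPKM, and each overlapped its neighbour in that order. Svip was second in the libraries labelled Smc3-deleted, at a mean of 4.45 ± 1.44 RPKM (SD, n = 4), and the double-deleted library at 3.78 RPKM lay within their range.

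The first comparison that did not choose the genes asks what the virus and Cre do on their own. In wild-type cells with Adeno-Cre none of the 7 genes was called, where limma called 3.24% of all genes in either direction. Fabp3 stood at 22.9 and 24.4 RPKM in Adeno-Cre wild-type clones, against 15.1 and 11.3 RPKM in untreated ones. Both treated clones were the higher ones, the log2 fold change was 0.81 (95% interval 0.19 to 1.43), and the adjusted p was 0.143. With the clone as a block in the model the same difference passed, at an adjusted p of 0.0194. Svip stood at 1.27 and 2.12 RPKM in Adeno-Cre clones, against 0.801 and 0.947 RPKM in untreated clones (log2 fold change 0.51, adjusted p = 0.333). Slc14a1 went the other way, with 0.647 and 1.07 RPKM in Adeno-Cre clones, against 1.83 and 1.15 RPKM untreated (log2 fold change -0.42, adjusted p = 0.131). Ada, with 8.74 and 8.08 RPKM in Adeno-Cre clones against 10.5 and 7.26 RPKM untreated, overlapped between groups. The 95% intervals of the other log2 fold changes ran from -0.93 to 0.82 for Ada, from -0.42 to 0.54 for Bdh1, from -0.51 to 0.21 for Pip5k1b and from -0.06 to 0.49 for Gldc. Pip5k1b and Gldc stayed under 1 RPKM in all wild-type libraries, where adding 1 shrinks changes.

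Taking the wild-type Adeno-Cre change off the Ctcf change left log2 differences of 3.52 for Ada, 2.98 for Slc14a1, 2.64 for Pip5k1b, 2.48 for Bdh1, 2.36 for Gldc, 2.36 for Svip and 1.64 for Fabp3. These again hold the comparison that chose the genes and are given without a test, where limma called 0.738% of all genes higher. The value of Fabp3 shrank most, by the 0.81 it showed in wild-type cells.

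Cells that lost Ctcf together with Wapl came from other clones and so give a separate reading. Of the 7 genes, 5 were called higher in the double-deleted library of clone 4 than in the untreated clones 3 and 4, where limma called 10.5% of all genes higher. Fabp3 reached 121 RPKM in the double-deleted library, against 20.9 and 46.1 RPKM in untreated clones 3 and 4 (log2 fold change 1.92, SE 0.362, adjusted p = 0.00134). Bdh1 reached 8.86 RPKM, against 2.70 and 2.17 RPKM untreated (log2 fold change 1.52, SE 0.28, adjusted p = 0.00108). Svip reached 3.78 RPKM, against 0.748 and 0.897 RPKM untreated (log2 fold change 1.39, SE 0.331, adjusted p = 0.00762). For these genes the treated library lay well above both untreated ones.

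Gldc, at 1.45 RPKM in the double-deleted library against 0.233 and 0.335 RPKM untreated, rose by 0.94 on the log2 scale (adjusted p = 0.000577). Slc14a1, at 0.992 RPKM in the double-deleted library against 0.320 and 0.0998 RPKM untreated, rose by 0.72 (adjusted p = 0.0108). Gldc entered the tests only through the Ctcf-deleted clones and this double-deleted library, so its call here is not independent of the filter on low values. Ada, which had the largest log2 fold change of the 7 after loss of Ctcf alone, stood at 9.24 RPKM in the double-deleted library, against 6.43 and 5.77 RPKM untreated. Its log2 fold change of 0.53 had a 95% interval of -0.54 to 1.60 and an adjusted p of 0.538. Pip5k1b stood at 0.713 RPKM in the double-deleted library, against 0.130 and 0.656 RPKM untreated (log2 fold change 0.32, adjusted p = 0.325). Its treated library lay next to the untreated library of the same clone. Without that untreated library the log2 fold change was 0.60 and the adjusted p 0.0439.

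Each of these calls rests on a single treated library that is assumed to vary like the other groups, and none held when only these 3 libraries were fitted (adjusted p of 0.285 to 0.403). The median log2 fold change over all genes was 0.17, and rescaling the libraries by the median of their gene ratios moved it by -0.18 and took the share of called genes that were higher to 42.6%, against 66.3% without it. Under that rescaling the same genes stayed past the threshold, with log2 fold changes of 1.70 for Fabp3, 1.33 for Bdh1, 1.23 for Svip, 0.82 for Gldc and 0.62 for Slc14a1. In the same library 3 of 10 fibroblast markers fell, with the 10 summing to 7490 RPKM against 7740 and 13300 RPKM in untreated clones, and Acta1, the skeletal muscle actin, stood at 376 RPKM against a mean of 22.2 RPKM in untreated clones. The 12 striated muscle markers summed to 460 RPKM in the double-deleted library, against 124 and 178 RPKM in the untreated ones. Of those 12, 6 could be tested and 1, Acta1, rose, and 2 of the 12 were at 0 in the double-deleted library. The 10 epithelial markers summed to 47.6 RPKM, against 5.54 and 8.56 RPKM, and 37.1 RPKM of that sum was Cldn4, which averaged 0.218 RPKM untreated. The part of muscle or epithelial cells in the level of Fabp3, a muscle protein, or of the other genes was not tested. In Ctcf-deleted cells the muscle markers summed to 118 and 327 RPKM, against 75.4 and 472 RPKM untreated, and again Acta1 was the 1 of 6 tested that rose, at 49.5 ± 1.61 RPKM against 14.3 ± 3.95 RPKM untreated (SD, n = 2 each; adjusted p = 0.0112).

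**Figure D2:**
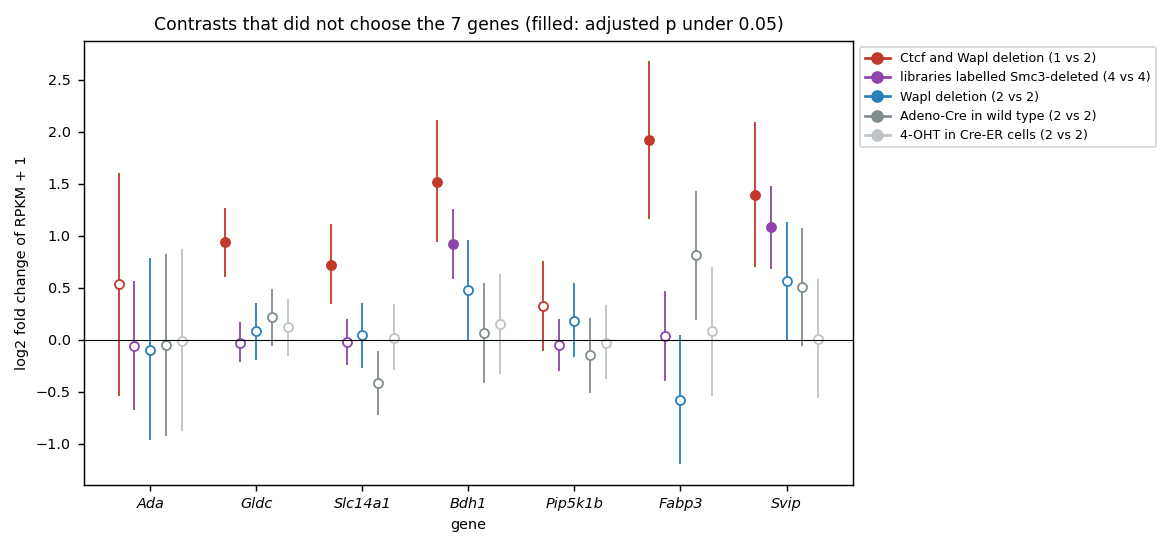
Log2 fold change of RPKM + 1 with its 95% interval for the 7 genes in the 5 comparisons that did not choose them, with filled points where the adjusted p is under 0.05. Filled points stand at 0.72 to 1.92 for 5 genes after Ctcf and Wapl deletion and at 0.92 and 1.08 for Bdh1 and Svip in the libraries labelled Smc3-deleted.

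The wild-type Adeno-Cre change was also set against the double deletion in the same model. Limma called 2.15% of all genes higher for this difference, and 2 of the 7 passed. Slc14a1 differed by 1.14 (adjusted p = 0.00934), since it lay lower with the virus in wild-type cells and higher in the double-deleted library. Bdh1 differed by 1.47 (adjusted p = 0.0263). Gldc missed the threshold, with a difference of 0.72 and an adjusted p of 0.0564, but passed with no filter on low values (adjusted p = 0.0177) and without the trend and robust options (adjusted p = 0.0443). Fabp3 (1.11, adjusted p = 0.213), Svip (0.89, adjusted p = 0.29), Ada (0.58, adjusted p = 0.731) and Pip5k1b (0.48, adjusted p = 0.389) did not pass either. With a pseudocount of 0.1 neither Slc14a1 (adjusted p = 0.0649) nor Bdh1 (adjusted p = 0.0567) passed. Without wild-type Adeno-Cre clone 2, Adeno-Cre clone 3 or untreated clone 3, the adjusted p of Bdh1 became 0.052, 0.0694 and 0.0969.

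A further pair of libraries came from clone 3 of the Ctcf and Wapl floxed cells after Adeno-Cre, in a table normalized apart from the main one and named in the labels for serum stimulation. The labels give both the same genotype, clone and treatment and give no serum treatment for either. Their Ctcf mRNA differed, at 3.17 and 7.61 RPKM, and their Wapl mRNA did too, at 0.902 and 2.09 RPKM. The library with less Ctcf mRNA held more of all 7 transcripts. Fabp3 stood at 178 and 30.0 RPKM in these libraries, against 20.9 RPKM in untreated clone 3 of the main table. Ada stood at 17.1 and 11.7 RPKM, against 6.43 RPKM in untreated clone 3. Bdh1 stood at 10.7 and 3.38 RPKM, against 2.70 RPKM in the untreated clone.

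The remaining genes of that pair split in the same manner, except for Slc14a1. Slc14a1 was alike in both, at 1.70 and 1.67 RPKM, against 0.320 RPKM untreated. Svip stood at 2.80 and 0.461 RPKM, against 0.748 RPKM untreated, so the second library lay below the untreated clone. Gldc stood at 0.860 and 0.176 RPKM, against 0.233 RPKM untreated, and Pip5k1b at 0.526 and 0.136 RPKM, against 0.130 RPKM untreated. The levels cross tables that were scaled separately, so no test was made, and what part Ctcf mRNA or an unstated treatment has in the difference between the 2 libraries was not tested.

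Cohesin itself was the target in the libraries labelled Smc3-deleted. There 2 of the 7 genes were called higher, where limma called 9.37% of all genes higher. Svip stood at 2.91, 3.63, 5.20 and 6.06 RPKM in clones 1 to 4 with 4-OHT, against 1.28, 1.32, 1.88 and 1.61 RPKM in the same clones untreated. It was higher in 4 of 4 clones, the groups did not overlap, and the log2 fold change was 1.08 (SE 0.191, adjusted p = 0.000873). Bdh1 stood at 2.96, 2.94, 2.22 and 2.89 RPKM with 4-OHT, against 0.852, 0.837, 1.32 and 0.923 RPKM untreated, also without overlap and higher in 4 of 4 clones (log2 fold change 0.92, SE 0.161, adjusted p = 0.000785). Both passed with each library left out in turn. Untreated Smc3 cells had the lowest Bdh1 mean of the 12 groups, at 0.983 RPKM. The mean of 2.75 RPKM with 4-OHT lay below the means of untreated wild-type and Cre-ER cells, 2.98 and 3.38 RPKM. In the libraries labelled Smc3-deleted 4 of 7 adipocyte markers tested fell, with sums of 11.4 to 19.7 RPKM against 33.2 to 49.2 RPKM untreated, and 3 of 6 striated muscle markers rose. The 12 macrophage markers, none called, summed to 26.9 to 290 RPKM, against 42.7 to 1630 RPKM, and the part of such cells in Svip and Bdh1 was not tested. In Ctcf-deleted cells the log2 fold changes of the same genes were 2.87 and 2.54.

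The other 5 genes had log2 fold changes between -0.06 and 0.03 in these libraries. Ada stood at 7.56, 9.32, 8.70 and 8.30 RPKM with 4-OHT, against 4.17, 12.5, 5.41 and 19.9 RPKM untreated. Its untreated clones spread far wider than the treated ones, 2 clones were higher and 2 lower after 4-OHT, and the 95% interval was -0.68 to 0.56. The log2 fold change turned positive without untreated clone 4 (0.31) or clone 2 (0.09). Fabp3 stood at 8.10, 8.47, 4.34 and 5.54 RPKM with 4-OHT, against 8.36, 5.29, 5.77 and 5.86 RPKM untreated, with a 95% interval of -0.40 to 0.47. Gldc stayed between 0.137 and 0.261 RPKM with 4-OHT and between 0.139 and 0.358 RPKM untreated. Slc14a1 and Pip5k1b rested on 19 and 12 reads in all 4 treated libraries, against 15 and 17 reads untreated, so a change of the size of their low levels was not detectable at this depth. Their 95% intervals ran from -0.24 to 0.20 and from -0.30 to 0.20.

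In plain Cre-ER cells, which carry no floxed gene, 4-OHT gave log2 fold changes of -0.03 to 0.15 for the 7 genes. None was called, and neither was any of the 12604 genes (0%), while 41 of all genes had an unadjusted p under 0.05 in limma. With the 4-OHT change of Cre-ER cells taken off, the Smc3 difference was 1.07 for Svip (95% interval 0.37 to 1.76, adjusted p = 0.14) and 0.77 for Bdh1 (0.19 to 1.36, adjusted p = 0.235). Neither passed, where 0.468% of all genes were called higher, and with the clone as a block Svip passed at an adjusted p of 0.0214 and Bdh1 stood at 0.0764.

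Loss of Wapl alone called none of the 7 genes, where limma called 2.43% of all genes in either direction. Svip stood at 1.66 and 1.51 RPKM in Wapl-deleted clones, against 0.811 and 0.692 RPKM in untreated clones (log2 fold change 0.56, adjusted p = 0.344). Bdh1 stood at 2.24 and 1.99 RPKM in Wapl-deleted clones, against 1.48 and 0.999 RPKM untreated (log2 fold change 0.48, adjusted p = 0.334). The groups overlapped for neither gene, but they did not for Gldc, Slc14a1, Pip5k1b and Fabp3 either. The share of all genes without such overlap is not given here. Fabp3 lay on the other side, with 5.09 and 5.81 RPKM in Wapl-deleted clones, against 10.2 and 7.31 RPKM untreated (log2 fold change -0.58, adjusted p = 0.385). Pip5k1b had 15 reads in Wapl-deleted clones and 2 reads in untreated clones. The 95% intervals were -0.97 to 0.78 for Ada, -0.20 to 0.35 for Gldc and -0.27 to 0.35 for Slc14a1. Gldc had 19 reads in Wapl-deleted and 10 reads in untreated clones, and Slc14a1 had 12 and 7 reads. Adding 1 to RPKM shrinks changes at such low levels, so the intervals of these genes do not bound their fold change in RPKM. With the 4-OHT change of Cre-ER cells taken off, the 7 differences ran from -0.66 for Fabp3 to 0.55 for Svip and none passed, where 0.143% of all genes were called. The 12 macrophage markers, none called, summed to 838 to 2280 RPKM in Wapl-deleted clones, against 2680 to 3650 RPKM untreated. The 8 adipocyte markers summed to 28.5 to 60.7 RPKM, against 80.9 to 94.0 RPKM, and 1 of 7 tested fell. The part of such cells in the levels of the 7 genes was not tested.

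Nascent RNA was measured by global run-on sequencing (GRO-seq), in which engaged polymerases extend RNA in isolated nuclei with a bromouridine analog. The Adeno-Cre and untreated columns each pool 2 libraries, labelled clones 1 and 2, which are not the clones of the RNA-seq. They have no replicate and their depth is unknown, so ratios are given without a test. Medians, shares and ranks of nascent ratios, here and below, are over genes with a mean of at least 1 TPM in the columns compared. Over 14680 such genes the median log2 ratio of Adeno-Cre to untreated cells was -0.71, with 6.04% past 2-fold higher and 33.5% past 2-fold lower. Gldc and Slc14a1 lay under that floor in both columns. Values are TPM, which here share a fixed total of 200000 per pooled column.

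None of the 7 genes was past 2-fold higher in nascent RNA of the double-deleted cells. Svip had 2.47 TPM with Adeno-Cre, against 1.86 TPM untreated (log2 ratio 0.39), and Fabp3 had 5.25 TPM, against 4.89 TPM (log2 ratio 0.10). These were the highest ratios of the 7, above those of 86.1% and 80.2% of genes. Pip5k1b had 1.27 TPM with Adeno-Cre, against 1.60 TPM untreated, Gldc 0.819 against 0.968 TPM, and Bdh1 2.06 against 2.81 TPM. Their log2 ratios of -0.31, -0.22 and -0.43 lay above the median of the genes over the floor. Slc14a1 had 0.367 TPM with Adeno-Cre, against 0.806 TPM untreated, a log2 ratio of -0.95 below that median. Among the genes called higher in the RNA-seq of clone 4, Svip and Fabp3 thus had positive log2 nascent ratios, and Bdh1, Gldc and Slc14a1 negative ones.

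Ada stood apart in nascent RNA. It had 0.273 TPM with Adeno-Cre, against 2.01 TPM untreated, a log2 ratio of -2.50 that only 2.22% of genes went below. In the RNA-seq of the double-deleted library the same gene had 9.24 RPKM, against 6.43 and 5.77 RPKM untreated. The direction of the ratio was the same with no pseudocount (-2.88) and with a pseudocount of 1 (-1.24).

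**Figure D3:**
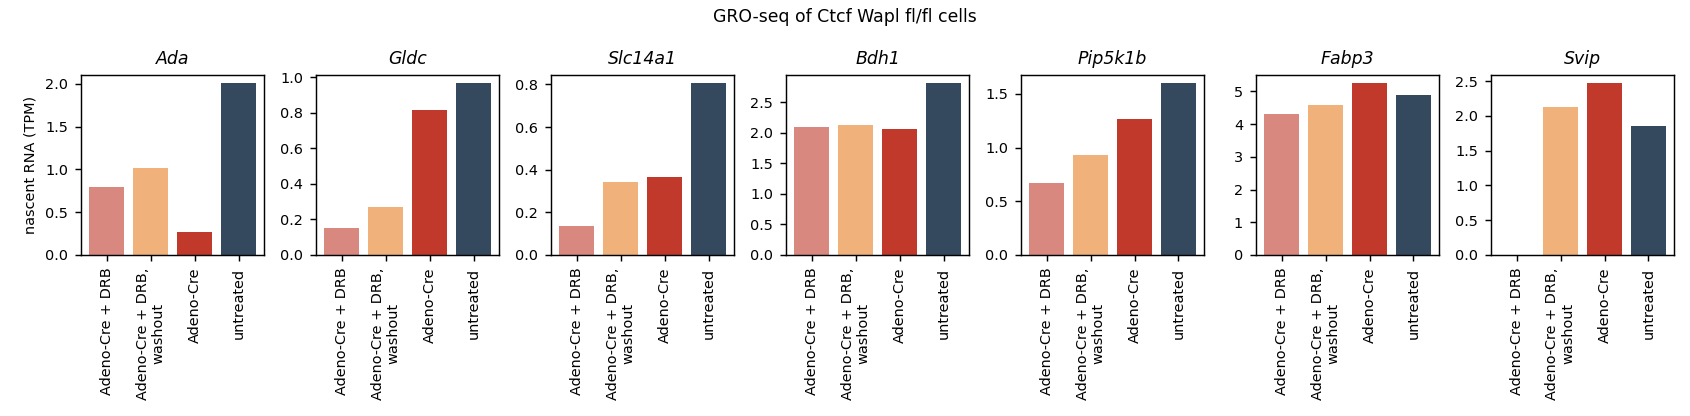
GRO-seq levels in TPM of the 7 genes in Ctcf Wapl fl/fl cells, with bars from left to right for Adeno-Cre with DRB, Adeno-Cre after DRB washout, Adeno-Cre and untreated, each panel on its own axis from 0. The first pair of bars is 1 library each, scaled to the sum of the pooled columns. The Adeno-Cre bar of Ada stands at 0.273 TPM beside an untreated bar of 2.01 TPM, and Svip is listed at 0 with DRB.

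Double-deleted cells were also treated for 3.5 h with DRB, an inhibitor of transcription elongation, and sampled again 1 d after its removal, with 1 library each. Relative to Adeno-Cre cells without DRB, the median log2 ratio of genes over the floor was -0.54 with DRB. Of them 38% were past 2-fold lower and 14.5% past 2-fold higher. After washout the median was 0.07, with 8.81% lower and 6.86% higher. Gldc had 0.150 TPM with DRB and 0.268 TPM after washout, against 0.819 TPM in Adeno-Cre cells, all under the floor. It was past 2-fold lower at both times, but not with a pseudocount of 1 (log2 ratios -0.66 and -0.52). Slc14a1 had 0.137 TPM with DRB and 0.343 TPM after washout, against 0.367 TPM, and Pip5k1b had 0.669 and 0.929 TPM, against 1.27 TPM. Bdh1 hardly moved, with 2.09 TPM under DRB and 2.12 TPM after washout, against 2.06 TPM. Fabp3 had 4.31 and 4.57 TPM, against 5.25 TPM. Svip was listed at 0 with DRB and had 2.13 TPM after washout, against 2.47 TPM in Adeno-Cre cells. Ada had 0.795 TPM with DRB and 1.02 TPM after washout, against 0.273 TPM, so both single libraries held more than the pooled Adeno-Cre column. The log2 ratio of Ada after washout was 1.59, above that of 98% of genes, and 0.71 with the columns as deposited, which have unequal sums. The mean level of Ada over those columns lay under the floor, so Ada was ranked against genes with more nascent RNA.

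In the columns labelled wild-type, the nascent and RNA-seq levels gave nearly the same order of the 7 genes. Whether treated cells entered the nascent column is not given. The wild-type nascent column, whose source libraries are not named, held 2.02 TPM for Fabp3, 1.82 TPM for Ada, 0.761 TPM for Svip, 0.707 TPM for Bdh1, 0.579 TPM for Pip5k1b, 0.232 TPM for Slc14a1 and 0.120 TPM for Gldc. The RNA-seq values deposited beside it, the mean of the untreated wild-type and Cre-ER libraries, were 8.46 RPKM for Fabp3, 7.04 RPKM for Ada, 3.18 RPKM for Bdh1, 1.13 RPKM for Svip, 0.756 RPKM for Slc14a1, 0.397 RPKM for Pip5k1b and 0.259 RPKM for Gldc. Fabp3 stood above 48.8% of genes in nascent RNA and 69.6% in RNA-seq, and Gldc above 24.6% and 35.2%. In the untreated Ctcf Wapl clones Fabp3 was higher, at 20.9 and 46.1 RPKM.

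The 7 genes were alike over the libraries mainly while the Ctcf-deleted clones were included. Over all 27 libraries the 21 pairs of genes had Pearson r of 0.426 to 0.959 on log2(RPKM + 1), with a median of 0.799. Without the 2 Ctcf-deleted libraries, a step chosen after seeing the data, the range over 25 libraries was -0.13 to 0.715 and the median 0.364. The closest pair was then Slc14a1 and Pip5k1b, at 0.715, and Gldc had 0.669 with Bdh1, 0.659 with Fabp3 and 0.621 with Pip5k1b. Ada had no r above 0.278 with any other of the 7 over these 25 libraries, and Svip none above 0.364. The libraries share clones, lines and, in part, sequencing depth, so these values describe the set only.

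**Figure D4:**
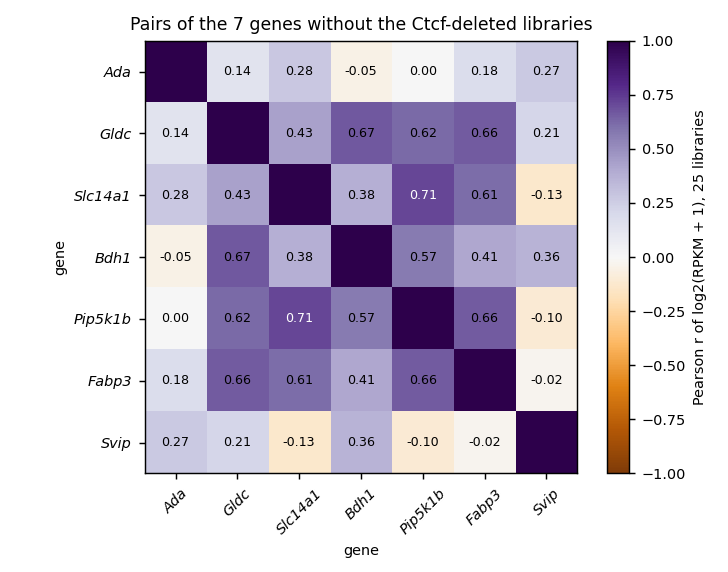
Pearson r of log2(RPKM + 1) between pairs of the 7 genes over the 25 libraries that remain without the Ctcf-deleted clones, with gene names on both axes and color for r. Gldc, Slc14a1, Bdh1, Pip5k1b and Fabp3 form a block with r of 0.382 to 0.715, and the rows of Ada and Svip run from -0.13 to 0.364.

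Among all other genes tested, those most like each gene over the 27 libraries were Rims4 and Slain1 for Ada (r = 0.885 and 0.883), Adcy8 and Slain1 for Gldc (0.965 and 0.954), and Slain1 and Dusp15 for Svip (0.923 and 0.891). Rims4 and Ppm1l were most like Pip5k1b (0.965 and 0.937), and Ppm1l and Nck2 most like Slc14a1 (0.905 and 0.898). Suco and Slc25a33 were most like Bdh1 (0.935 and 0.900). The genes nearest to Fabp3, F2rl1 and Chmp1a (0.916 and 0.895), held r of 0.887 and 0.923 without the Ctcf-deleted libraries. In the order named above, r was then 0.821 and 0.562 for Gldc, 0.817 and 0.806 for Svip, and 0.810 and 0.705 for Bdh1. It was 0.648 and 0.518 for Pip5k1b, 0.545 and 0.550 for Slc14a1, and 0.159 and 0.242 for Ada.

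The genes beside the 7 on their chromosomes were examined in the order of the RefSeq annotation. Of the 14 nearest genes with a row, 11 could be tested after Ctcf deletion, and 0 were called higher and 1 lower in limma, which called 7.66% of all genes in either direction. Tmem252, next to Pip5k1b, was that 1, at 0.185 and 0.243 RPKM in Ctcf-deleted clones, against 0.792 and 1.03 RPKM untreated (log2 fold change -0.65, adjusted p = 0.027). Slc14a2, the paralogous urea transporter gene next to Slc14a1, stood at 1.12 and 0.224 RPKM in Ctcf-deleted clones, against 1.44 and 0.318 RPKM untreated (log2 fold change -0.15, adjusted p = 0.902). Beside Ada, Pkig stood at a log2 fold change of 0.40 (adjusted p = 0.491) and Wisp2 at -1.84 (adjusted p = 0.0859). Dlg1 and Apod beside Bdh1 (adjusted p = 0.964 and 0.568), Uhrf2 beside Gldc (adjusted p = 0.433), Gas2 beside Svip (adjusted p = 0.385) and Snrnp40 beside Fabp3 (adjusted p = 0.809) were not called.

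Widening the view to 5 genes on each side, a step chosen after seeing the data, gave 50 tested neighbours, of which 7 were called higher and 3 lower, or 20%, beside 7.66% of all genes. Genes in these windows are not independent of each other, and the share was not tested. One of the higher ones was Rims4, the third gene on one side of Ada. Rims4 stood at 1.27 and 1.39 RPKM in Ctcf-deleted clones, against 0.118 and 0 RPKM untreated (log2 fold change 1.14), with 0.191 RPKM in the double-deleted library. Among the wild-type, Ctcf and Ctcf Wapl libraries, only the Ctcf-deleted clones reached 1 RPKM of Rims4. Its call, which counts among the 7, is therefore not independent of the filter on low values, and no p-value is given. Other genes overlap 2 of the 7 in the annotation, and whether counting used the strand is not given in the sources used here. Fam122a, which overlaps Pip5k1b, had a log2 fold change of 0.12 (adjusted p = 0.815) after Ctcf deletion, and Zcchc17, which overlaps Fabp3, 0.39 (adjusted p = 0.0593).

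In the double-deleted library 1 of the 11 nearest genes was called higher and 3 lower, of which 2 are named here, where limma called 15.8% of all genes in either direction. Serinc2, beside Fabp3, reached 38.7 RPKM in the double-deleted library of clone 4, against 1.47 and 10.8 RPKM in untreated clones 3 and 4 (log2 fold change 2.88, adjusted p = 0.00268). After Ctcf deletion alone Serinc2 stood at 5.79 and 3.29 RPKM, against 1.58 and 0.952 RPKM untreated (log2 fold change 1.27, adjusted p = 0.129). Gas2, beside Svip, stood at 12.4 RPKM, against 31.1 and 38.7 RPKM (adjusted p = 0.0262), and Tmem252 at 0.0428 RPKM, against 1.04 and 0.462 RPKM (adjusted p = 0.0277).

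After Ctcf deletion few genes of the pathways around the 7 passed the test, which called 5.04% of all genes higher and 2.63% lower. Counted without the 7 genes, 1 of 28 tested genes of adenosine and purine salvage rose and none fell, with a median log2 fold change of 0.08 beside 0.05 over all genes. The one that rose was Enpp1, which splits extracellular ATP, with a mean of 5.26 ± 0.349 RPKM in Ctcf-deleted and 1.67 ± 0.542 RPKM in untreated cells (SD, n = 2 each; adjusted p = 0.00284). Of 22 genes of glycine, serine and one-carbon metabolism 3 rose and none fell, with a median of -0.07. Psat1, of serine synthesis, averaged 40.1 ± 11.0 RPKM in Ctcf-deleted and 13.2 ± 3.51 RPKM in untreated cells (SD, n = 2 each; adjusted p = 0.0172). Cbs, cystathionine beta-synthase, averaged 1.34 ± 0.137 RPKM in Ctcf-deleted and 0.351 ± 0.122 RPKM in untreated cells (SD, n = 2 each; adjusted p = 0.00949). None of 26 genes of fatty acid binding, uptake and oxidation was called after Ctcf deletion, with a median of 0.15.

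Bdh2, a cytosolic dehydrogenase of the same naming family as Bdh1, was the only called gene of 10 in ketone body metabolism. It fell to 3.97 ± 1.11 RPKM in Ctcf-deleted cells, against 10.2 ± 1.77 RPKM untreated (SD, n = 2 each; log2 fold change -1.18, adjusted p = 0.0331). Of 37 phosphoinositide kinases and phosphatases 2 fell and none rose. Inpp5e, an inositol 5-phosphatase of cilia, fell to 2.03 ± 0.549 RPKM, against 7.71 ± 0.0735 RPKM (adjusted p = 2.42e-06), and Ocrl, another 5-phosphatase, to 0.831 ± 0.301 RPKM, against 3.52 ± 0.105 RPKM (SD, n = 2 each; adjusted p = 0.00827). Of 34 genes of endoplasmic reticulum degradation and VCP partners 2 rose, Vimp and Edem3, with log2 fold changes of 0.77 and 0.66 (adjusted p = 0.00349 and 0.0252). Vimp also rose in wild-type cells with Adeno-Cre, by 0.64 (adjusted p = 0.0303). Of 6 tested genes of urea transport and the urea cycle Asl, argininosuccinate lyase, rose, by 0.58 (adjusted p = 0.0427).

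In the double-deleted library Bdh2 fell to 0.726 RPKM, against a mean of 7.85 ± 5.84 RPKM untreated (SD, n = 2; adjusted p = 0.00119), while Bdh1 rose as given above. In the libraries labelled Smc3-deleted Bdh2 averaged 29.9 ± 6.91 RPKM, against 12.1 ± 0.717 RPKM untreated (SD, n = 4 each; log2 fold change 1.21, adjusted p = 0.00171), so there Bdh1 and Bdh2 both rose. In that comparison, where limma called 9.37% of all genes higher and 5.6% lower, 3 of 10 genes of the ketone body list rose and 1 fell. The one that fell was Slc16a1, a monocarboxylate transporter, at 4.49 ± 0.354 RPKM in libraries labelled Smc3-deleted, against 10.2 ± 1.10 RPKM untreated (SD, n = 4 each; adjusted p = 0.0022). Beside Fabp3, 5 of 26 fatty acid genes rose in the double-deleted library and none fell, where 10.5% of all genes were called higher and 5.34% lower, led by Slc27a1 (log2 fold change 1.47, adjusted p = 0.0131) and Cpt1a (0.86, adjusted p = 0.00925). In the libraries labelled Smc3-deleted 5 rose and 3 fell, among them Fabp4, the adipocyte fatty acid binding protein, which fell by 2.48 on the log2 scale (adjusted p = 0.00175). Fabp4 is also one of the adipocyte markers that fell there.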

How the data were processed

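RNA-seq expression was deposited in RPKM and GRO-seq expression in TPM, per the file headers. Per the submitters' processing notes the build was mm9, and TopHat 1.3.1 and 1.4.1, Bowtie 0.12.5 and HTSeq were among the tools. RPKM steps gave whole reads (within 0.02 reads) for 99.99% of 18155 genes, which gave the depth. Counting error is only part of the spread between clones.

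Genes with at least 1 RPKM in at least 2 libraries (12604) were tested on log2(RPKM + 1) with limma 3.58.1 (R 4.3.3; trended, robust empirical Bayes, 1 mean for each of 12 groups over 27 libraries, 15 residual degrees of freedom, Benjamini-Hochberg threshold 0.05). The fit was tried on simulated data of these means, with independent noise in each library. It recovered 47% of genes changed by 1 and 92% of those changed by 2 on the log2 scale in the double-deletion comparison. Clone numbers pair the libraries, since the labels name the same clone in both groups; same-clone deviations correlated at 0.47 to 0.76, except -0.20 in Cre-ER cells. The clone block was an alternative, as were other pseudocounts, filters, scalings and left-out libraries. The DRB columns summed to 100000 and were multiplied by 2.0. GRO-seq ratios used a pseudocount of 0.1 TPM. ChIP-seq was not used here.

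The 7 genes and all lists were chosen with earlier results of these data known. Named beside them were, for each pathway list, up to 2 called genes with the largest change, the nearest measured neighbours, and the 2 genes with the highest r. One neighbouring gene is not reported here.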

Additional observations from a re-analysis of the deposited data

Results flagged for a closer look

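In groups of 4 libraries, the highest or lowest library stood far from the others for 2 of the 14 combinations of gene and Smc3 group, and chance flags about 1 in 20. Bdh1 in the libraries labelled Smc3-deleted had 2.22 RPKM in clone 3 and 2.89 to 2.96 RPKM in the other clones. Pip5k1b in untreated Smc3 cells had 0.266 RPKM in clone 3 and at most 0.047 RPKM in the other clones. The change after double deletion differed from that of Adeno-Cre in wild-type cells for 2 genes, by the limma test of the difference itself. The difference was 1.14 on the log2 scale for Slc14a1 (adjusted p = 0.00934) and 1.47 for Bdh1 (adjusted p = 0.0263). The double-deleted arm is 1 library, and neither call held with a pseudocount of 0.1 (adjusted p = 0.0649 and 0.0567) or with only the groups compared in the model (0.301 and 0.177). Bdh1 also missed the threshold when any of 3 wild-type libraries was left out, as given above.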

How the results depend on the processing

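Over 768 alternative values of the 7 genes in the RNA-seq comparisons that did not choose them, 714 kept direction and side of the threshold, 12 lost and 8 gained a call, and 34 turned direction, none of them called. Of these, 32 came from leaving out a library and 2 from rescaling (Bdh1 with Adeno-Cre, -0.01, and Fabp3 for Smc3, -0.02). With only the groups compared in the model, which leaves few residual degrees of freedom, 0 of the 7 genes were called after double deletion and 0 for double deletion net of Adeno-Cre. The last count was also 0 with a pseudocount of 0.1. Genes called over the whole table under that model numbered 2 against 966 for Ctcf deletion, 0 against 408 for Adeno-Cre, 0 against 1997 for double deletion, 921 against 1887 for Smc3 and 0 against 306 for Wapl. Net of their controls they were 27 against 488 for double deletion, 22 against 184 for Ctcf deletion and 97 against 155 for Smc3.

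The clone block changed the call of Fabp3 with Adeno-Cre (1 of 7 genes called) and of Svip for Smc3 net of 4-OHT (1 of 7), and no other call of the 7 genes in these comparisons. With the block all genes called were 3155 for Ctcf deletion, 2899 for Adeno-Cre, 4616 for Smc3 and 1839 for Wapl, and net of controls 1515 for double deletion, 876 for Ctcf deletion, 1343 for Smc3 and 312 for Wapl. With no filter they were 713 for Adeno-Cre and 1 for 4-OHT, and net of controls 1155, 307, 101 and 49 in the same order. A pseudocount of 0.1 gave 265 for Adeno-Cre and 5 for Wapl net of 4-OHT, against 18, a pseudocount of 0.5 gave 11, and a filter of 4 libraries gave 5. That filter left out Gldc and Pip5k1b.

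With each library left out in turn, all genes called ranged over 380 to 744 for Ctcf deletion, 45 to 483 for Adeno-Cre, 1066 to 2867 for double deletion, 1280 to 2063 for Smc3, 28 to 259 for Wapl and 0 to 2 for 4-OHT. Net of controls they ranged over 266 to 1166, 106 to 203, 21 to 284 and 6 to 21. Of the 7 genes, 5 to 6 were then called after double deletion and 1 to 4 net of Adeno-Cre. Gldc gained that call without Adeno-Cre wild-type clone 2 (adjusted p = 0.0417) and, like Fabp3, without untreated Ctcf Wapl clone 4 (adjusted p = 0.0379 and 0.018). The cause of these shifts was not tested. Simulated recovery of log2 changes of 1 was 47% for double deletion, 48% for Adeno-Cre, 70% for Wapl and 82% for Smc3. Each share comes from a single draw of 100 changed genes, with independent noise in each library and no clone effect. Adeno-Cre and Wapl have equal numbers of libraries, so the gap between their shares is not read as a difference in sensitivity.

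Log2 fold changes that turned direction when a library was left out ranged over -0.29 to 0.19 for Ada and -0.12 to 0.23 for Bdh1 with Adeno-Cre. For Smc3 they ranged over -0.37 to 0.31 for Ada, -0.06 to 0.03 for Gldc, -0.06 to 0.01 for Slc14a1, -0.08 to 0.02 for Pip5k1b and -0.08 to 0.19 for Fabp3, and for Wapl over -0.43 to 0.23 for Ada. For 4-OHT they ranged over -0.06 to 0.04 for Ada, -0.01 to 0.24 for Gldc, -0.01 to 0.06 for Slc14a1, -0.14 to 0.09 for Pip5k1b and -0.07 to 0.10 for Svip. Net of 4-OHT they ranged for Smc3 over -0.36 to 0.32 for Ada, -0.14 to 0.09 for Pip5k1b and -0.16 to 0.12 for Fabp3, and for Wapl over -0.42 to 0.24 for Ada, -0.16 to 0.09 for Gldc and -0.02 to 0.05 for Slc14a1.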
